A study of Saccharomyces cerevisiae BY4741 with 6 samples.

Results

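The 72 genes described here are the genes of a yeast count table that lie near a chromosome end, a minority of the genes annotated there. Each has its start or end within 20 kb of an end of a nuclear chromosome in the sacCer3 assembly and a mean of at least 10 counts over the 6 libraries. They are 72 of 5186 genes tested and of 5219 genes in the count table. Chromosome XI was left out, and so were YFR053C (HXK1) and YHL047C (ARN2). The values come from NET-seq, which sequences the RNA still attached to RNA polymerase II, here recovered through a 3xFLAG tag on its subunit Rpb3. The deletion strain was BY4741 RPB3-3xFLAG with spp1::KanMX6, and the wild type was BY4741 RPB3-3xFLAG with an intact SPP1, so both strains carried the tag. Each strain gave 1 library in glucose medium, 1 at 15 min and 1 at 60 min after transfer to galactose medium, with no replicates within a condition.

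Subtelomeres, the stretches next to the telomere repeats, are known in budding yeast for gene families that handle alternative sugars, metals, vitamins and stress, many of them in near-identical copies. Chromatin close to the telomere can be silenced by the Sir proteins, which are recruited through Rap1 and Ku and spread over deacetylated histones. Spp1 belongs to COMPASS, the enzyme that methylates lysine 4 of histone H3, and it is needed for full trimethylation. Whether loss of Spp1 and a change of sugar alter transcription near chromosome ends is the question that the comparisons below address.

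Library totals ran from 1162190 to 4167249 counts in the deletion and from 1270361 to 2528759 in the wild type, with the glucose library the deepest in each strain. SPP1 (YPL138C, chromosome XVI, 291366 to 292427) had 1, 0 and 0 counts in the deletion libraries in glucose and at 15 and 60 min, against 324, 69 and 131 in the wild type, so the strain labels held. Of 235 protein-coding genes annotated within 20 kb of an end outside chromosome XI, 74 were in the table (31.5%), against 4777 of 5449 elsewhere (87.7%). The listed share was 9.43% within 5 kb, 19.4% from 5 to 10 kb, 27.0% from 10 to 15 kb and 70.2% from 15 to 20 kb. The median of the mean counts was 168 for the 72 genes and 246 for the other 5114.

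The listed genes therefore hold few of the families that define subtelomeres. Of 10 annotated COS genes within 20 kb, whose proteins promote sorting of membrane proteins at endosomes, only COS10 is among the 72, and COS12, at 2.79 kb, was listed with 0 counts in every library and was not tested. None of 18 seripauperin and DAN genes, 8 Y' helicase genes, 8 thiamine and pyridoxine genes, 4 hexose transporter genes and 3 enolase-related genes annotated there is among the 72. By number of genes the maltose family is the best represented, with 5 of 11 (MAL11, MAL13, MAL31, MAL33 and YPR196W). It is followed by 4 of 10 polyol and aryl-alcohol dehydrogenase genes (AAD4, AAD6, AAD10 and AAD14). With ARN2 and chromosome XI left out, all 3 iron uptake genes of the list used (ARN1, ENB1 and FET4) are among the 72. The genes sit at 26 of 30 possible chromosome ends, from RDS1 (chromosome III, 310958 to 313456, 3.16 kb from the right end) to GAB1 at 19.7 kb. Of the 72, 40 are transcribed toward the end and 32 away from it. EMA35 and YCR099C share part of their span, as do DIA1 and YMR316C-A, so their reads may not be separable, and reads may also be shared within the COS, MAL and AAD families.

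Per gene length, the subtelomeric genes were transcribed at a lower median level than the others in every library. The level is given as CPM, counts scaled to a common library size with TMM factors, per kb of gene. In the deletion the 72 genes had medians of 55.1, 72.5 and 59.5 CPM per kb in glucose and at 15 and 60 min, while the 5017 other genes with an annotated length had 92.7, 89.4 and 90.5. In the wild type the medians were 59.5, 86.8 and 67.9 CPM per kb for the 72 genes and 91.5, 90.0 and 91.2 for the others. Per kb the gap was narrowest at 15 min in both strains, with the 72 genes at 0.810 of the others' median in the deletion and 0.963 in the wild type. Without length scaling the wild-type ratio was 0.752 at 15 min and 0.820 at 60 min, so there the wild-type gap was narrowest at 60 min. The spread among the 72 was wide, and COX14, a short gene for a cytochrome c oxidase assembly factor, stood highest per kb in wild-type glucose (838 CPM per kb) while YPS6, a yapsin protease gene, stood lowest (0.483). Together the 72 genes took 0.662% to 1.26% of the counts of a library, and such shares cannot tell fewer transcribing cells from less transcription per cell.

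The genotype comparison asked which of these genes differed between the spp1 deletion and the wild type across all 3 conditions. COS10, YIR042C, IRC7, ARR1, YOL159C-A and FDC1 were lower in the deletion and DLD3 was higher, by 0.50 to 0.70 on the log2 scale. These 7 of 72 genes passed edgeR's quasi-likelihood test at a Benjamini-Hochberg adjusted p of 0.05 (9.72%), beside 1.83% of all genes tested. In the lower direction the count was 6 of 72 (8.33%, all genes 0.733%) and in the higher direction 1 of 72 (1.39%, all genes 1.1%). At an unadjusted p of 0.05 the lower count was 20 (27.8%, all genes 7.52%) and the higher count 5 (6.94%, all genes 6.04%). The 72 genes as a group were not tested against the other genes, and their median log2 difference was -0.02, against 0.00 for the others.

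COS10 (YNR075W, chromosome XIV, 779916 to 781040, 3.29 kb from the right end) had 116, 78.5 and 65.7 CPM in the deletion in glucose and at 15 and 60 min, against 177, 128 and 103 CPM in the wild type. Every deletion library lay below the wild-type library of its condition, with single-condition log2 differences of -0.61, -0.70 and -0.64. The shared log2 difference was -0.65 ± 0.12 (edgeR adjusted p = 0.00664), where ± gives the size of the log2 value over the root of its F statistic, a rough standard error. AIF1, the next listed gene inward and a mitochondrial cell-death factor gene, had a log2 difference of -0.39 ± 0.12 that did not pass (edgeR adjusted p = 0.122). YIR042C (chromosome IX, 435273 to 435983, 3.90 kb from the right end) had 28.7, 44.3 and 28.7 CPM in the deletion, against 47.5, 71.3 and 45.7 CPM in the wild type. It too was lower in each of the 3 pairs, and its log2 difference was -0.70 ± 0.16 (edgeR adjusted p = 0.0412).

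IRC7 (YFR055W, chromosome VI, 264204 to 265226, 4.93 kb from the right end) encodes a beta-lyase that releases thiols from cysteine conjugates. Its levels were 255, 204 and 109 CPM in the deletion and 324, 286 and 182 CPM in the wild type. The deletion was lower in each condition, and the log2 difference was -0.50 ± 0.11 (edgeR adjusted p = 0.0338). These 3 are the only genes called among the 4 that lie within 5 kb of an end. The fourth, RDS1, a zinc-cluster regulator gene, had 27.5, 14.6 and 12.3 CPM in the deletion and 25.7, 12.3 and 18.0 CPM in the wild type, with a log2 difference of -0.02 ± 0.24 (edgeR adjusted p = 0.985).

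ARR1 (YPR199C, chromosome XVI, 938148 to 939032, 9.03 kb from the right end), the activator of the arsenic resistance genes, had 51.7, 91.8 and 77.2 CPM in the deletion and 76.4, 128 and 133 CPM in the wild type. Its log2 difference was -0.60 ± 0.13 (edgeR adjusted p = 0.019), with the deletion lower in all 3 pairs. ARR3, the arsenite exporter gene of the same cluster, had 9.56, 13.9 and 20.5 CPM in the deletion and 19.5, 31.1 and 18.7 CPM in the wild type. ARR3 was therefore lower in the deletion in glucose and at 15 min but not at 60 min, and its log2 difference of -0.73 ± 0.28 did not pass (edgeR adjusted p = 0.238).

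FDC1 (YDR539W, chromosome IV, 1512094 to 1513605, 18.3 kb from the right end) encodes ferulic acid decarboxylase. It had 45.1, 79.1 and 60.7 CPM in the deletion and 71.7, 97.5 and 104 CPM in the wild type, a log2 difference of -0.58 ± 0.14 (edgeR adjusted p = 0.0412). At 15 min its exact 95% counting interval spanned 0 (-0.68 to 0.07 on the log2 scale), and in the other conditions it lay below 0. Such intervals cover counting error only. PAD1, which makes the flavin cofactor of Fdc1 and lies just outside the window at 20.3 kb, had a log2 difference of -0.68. YOL159C-A (chromosome XV, 15233 to 15505, 15.2 kb from the left end) had 54.9, 70.9 and 65.7 CPM in the deletion and 74.8, 107 and 97.9 CPM in the wild type. It was lower in each pair and passed most narrowly (log2 -0.53 ± 0.13, edgeR adjusted p = 0.0481).

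**Figure D1:**
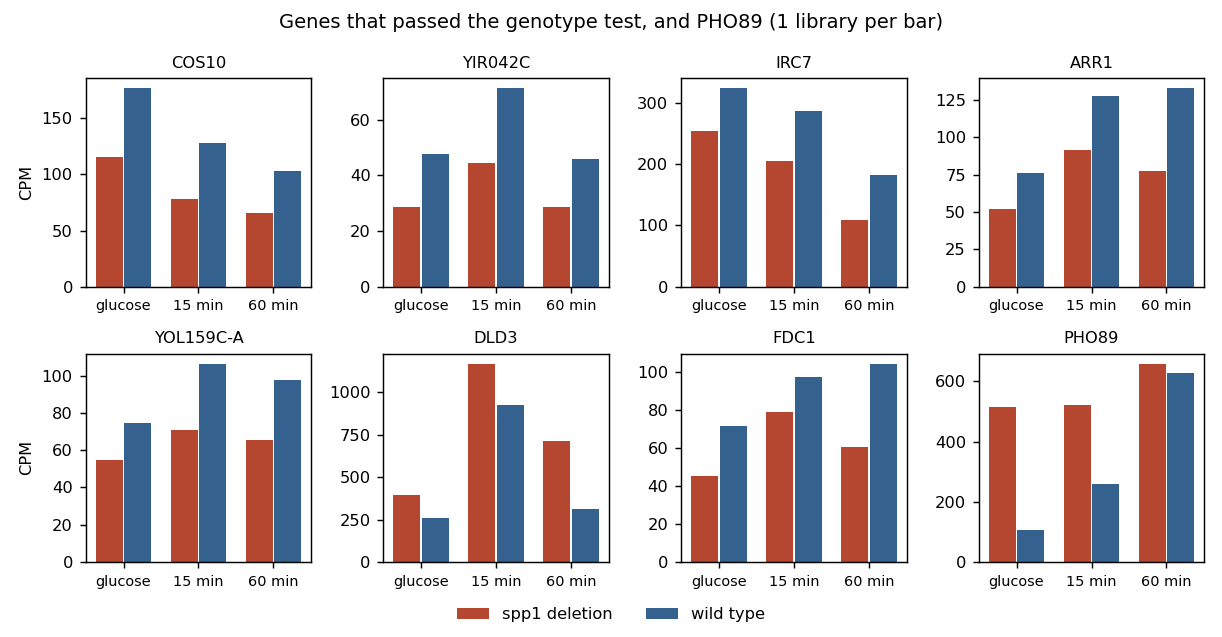
Level in CPM (vertical axis, from 0, its own scale in each panel) of the 7 genes that passed the genotype test and of PHO89, in glucose and at 15 and 60 min; each bar is 1 library, the spp1 deletion left of the wild type. The deletion bar is the lower of each pair for COS10, YIR042C, IRC7, ARR1, YOL159C-A and FDC1 and the higher for DLD3, while for PHO89 the gap is wide in glucose (516 against 108 CPM) and small at 60 min (659 against 629 CPM).

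DLD3 (YEL071W, chromosome V, 16355 to 17845, 16.4 kb from the left end), which encodes a cytosolic D-lactate dehydrogenase, had 394, 1168 and 712 CPM in the deletion and 262, 925 and 309 CPM in the wild type. The deletion was higher in each pair, by 0.59, 0.34 and 1.20 on the log2 scale, with a shared difference of 0.70 ± 0.16 (edgeR adjusted p = 0.0407). PHO89 (YBR296C, chromosome II, 796798 to 798522, 14.7 kb from the right end), the sodium-phosphate cotransporter gene, had 516, 520 and 659 CPM in the deletion and 108, 259 and 629 CPM in the wild type. Its difference of 1.09 ± 0.27 was the highest of the 72 and did not pass (edgeR adjusted p = 0.0565), since the single-condition differences were 2.25, 1.00 and 0.07. DIA1, which was higher in the deletion in glucose (130 against 62.3 CPM), had a shared difference of 0.63 ± 0.18 that did not pass either (edgeR adjusted p = 0.0856). YML131W (0.41 ± 0.12) and CHA1 (0.39 ± 0.12) were higher in the deletion in each pair and did not pass (edgeR adjusted p = 0.119 and 0.122). MAL33 and LYS1 (both 0.27), PCA1 and ADH6 (both 0.20) and GTT1 (0.18) were also higher in each pair. None of these passed (edgeR adjusted p of 0.386 or more).

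Among genes that did not pass, AAD14, an aryl-alcohol dehydrogenase gene, had the lowest fitted difference (-0.87 ± 0.35, edgeR adjusted p = 0.265). Its levels were 5.64, 6.33 and 4.92 CPM in the deletion and 8.18, 13.1 and 12.2 CPM in the wild type, so few counts stood behind it. IMD2, an IMP dehydrogenase gene, had -0.62 ± 0.17 (edgeR adjusted p = 0.0803), and its strains differed in glucose (143 CPM in the deletion, 236 CPM in the wild type) but hardly in galactose. YDR541C had -0.62 ± 0.19 (edgeR adjusted p = 0.136), and it was lower in the deletion in each pair. MMP1 and MHT1, neighbours on the left end of chromosome XII that encode a permease for S-methylmethionine and the enzyme that uses it, had -0.51 ± 0.20 and -0.50 ± 0.20 (edgeR adjusted p = 0.246 and 0.279). Without regard to size, 21 of the 72 genes were lower in the deletion in all 3 conditions (29.2%, all genes 17.9%) and 12 were higher in all 3 (16.7%, all genes 18.1%). The remaining genes changed sign between conditions.

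**Figure D2:**
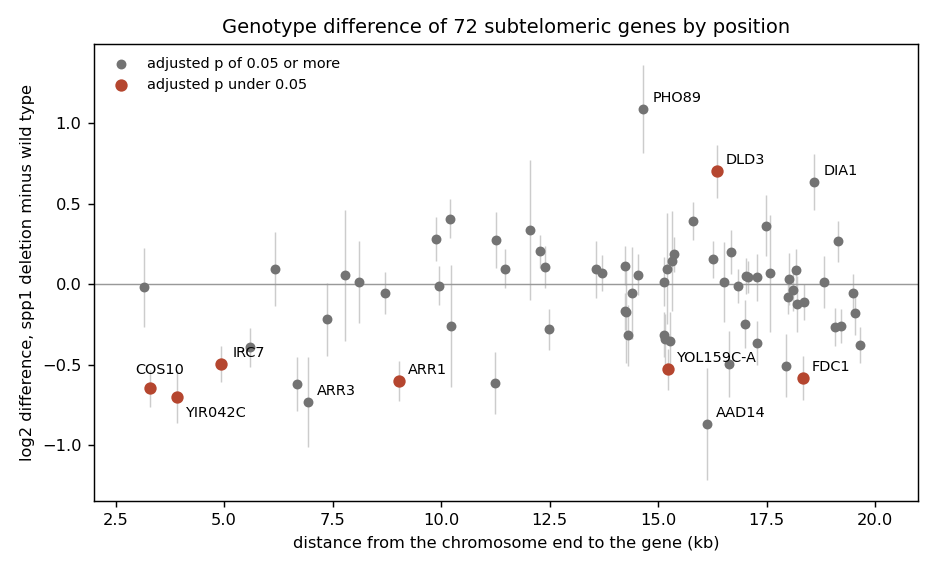
Shared log2 difference, spp1 deletion minus wild type, of the 72 genes (vertical axis) against the distance of the gene from its chromosome end in kb (horizontal axis); bars are ± the rough standard error and red points have an adjusted p under 0.05. The red points at the left edge are COS10, YIR042C and IRC7 (-0.65, -0.70 and -0.50), PHO89 is the highest point at 1.09, and AAD14 is the lowest at -0.87.

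Across the 72 genes, which share the same libraries, Spearman's rho of the log2 difference with distance from the end was 0.10 (n = 72), given as a description. The median difference was -0.57 in the 4 genes within 5 kb, -0.06 in the 11 from 5 to 10 kb, 0.08 in the 18 from 10 to 15 kb and -0.01 in the 39 from 15 to 20 kb. In these bins the number lower in the deletion was 3, 1, 0 and 2. From 20 to 30 kb 1 of 102 genes was lower and 3 were higher, and beyond 50 kb 27 of 4642 were lower and 51 higher. The bins within 15 kb hold under 20 genes each, and the value nearest the end rests on 4 genes.

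The size of the difference, without its sign, was larger among the 72 genes than among the others in each condition. The median absolute log2 difference was 0.28, 0.24 and 0.23 for the 72 genes in glucose and at 15 and 60 min, against 0.14, 0.19 and 0.20 for the others. The lower counts of the 72 genes move with this, and their part in it was not tested. Exact counting intervals in glucose lay below 0 for 23 of the 72 genes (31.9%, all genes 15.7%) and above 0 for 15 (20.8%, all genes 17.6%). At 15 min they lay below 0 for 15 (20.8%, all genes 12%) and above for 10 (13.9%, all genes 12.1%), and at 60 min below for 13 (18.1%, all genes 13.9%) and above for 6 (8.33%, all genes 14.5%). At least 2-fold in a single pair of libraries, with no test possible, were PHO89 and DIA1 higher in glucose (2 of 72, all genes 0.848%) and PHO89 higher at 15 min (1 of 72, all genes 1.58%). At 15 min ARR3 and YER187W were lower by that much (2 of 72, all genes 0.675%). At 60 min DLD3 and YAL064W-B were higher (2 of 72, all genes 1.2%) and AAD14 was lower (1 of 72, all genes 0.501%).

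The number of subtelomeric genes called for genotype varied with the tool, the scaling and the library left out. The share of all genes is given here for DESeq2 and limma only. A fit with a library left out also has fewer residual degrees of freedom. Whether the shifts under the other settings were particular to the subtelomeric genes was therefore not tested. DESeq2 called DLD3 higher (all genes 0.733%) and 0 genes lower (all genes 0.231%). At its unadjusted p of 0.05, 8 were lower (11.1%, all genes 2.7%) and 4 were higher (5.56%, the other genes 2.54%). Limma called 1 higher (all genes 0.81%) and 3 lower (all genes 0.54%), RLE scaling gave 0 higher and 3 lower, and centring each library on its median gene gave 2 higher and 6 lower. Leaving out the deletion glucose library left 0 higher and 0 lower, leaving out the wild-type glucose library left 0 higher and 2 lower, and leaving out any library at 15 or 60 min gave 3 or 4 higher and 5 or 6 lower.

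The galactose comparison asked how transcription of these genes changed between glucose medium and galactose medium, over both strains. The maltose genes MAL33, MAL31 and MAL11, MSC1 and the glutathione and peroxide genes GTT1 and HYR1 were among those that rose, and IMD2, MNT2, ADH4 and FET4 were among those that fell. At 15 min 39 of 72 genes passed edgeR's test (54.2%, all genes 75.2%), and at 60 min 41 did (56.9%, all genes 66.2%). At 15 min, 27 of 72 genes were higher in galactose (37.5%, all genes 37.1%) and 12 were lower (16.7%, all genes 38.1%). At 60 min, 25 were higher (34.7%, all genes 32.3%) and 16 lower (22.2%, all genes 33.9%). The shares of higher genes were near those of all genes, and the shares of lower genes were below them. The median log2 change was 0.28 at 15 min and 0.19 at 60 min for the 72 genes, beside -0.02 at each time for the others. Galactose cultures were spun down and resuspended, which the labels do not describe for glucose cultures, so sugar and handling cannot be told apart. Both times are set against the same 2 glucose libraries.

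At least 2-fold changes that passed the test were seen at 15 min in 17 genes that rose (23.6%, all genes 20.7%) and in 3 that fell (4.17%, all genes 24.5%). At 60 min they were 17 that rose (23.6%, all genes 15.7%) and 7 that fell (9.72%, all genes 17.6%). In the deletion alone, 17 genes were at least 2-fold higher (all genes 19.9%) and 4 at least 2-fold lower (all genes 24%) at 15 min than in glucose, and in the wild type alone 18 (all genes 21.5%) and 4 (all genes 25%). These single-strain counts have no test.

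**Figure D3:**
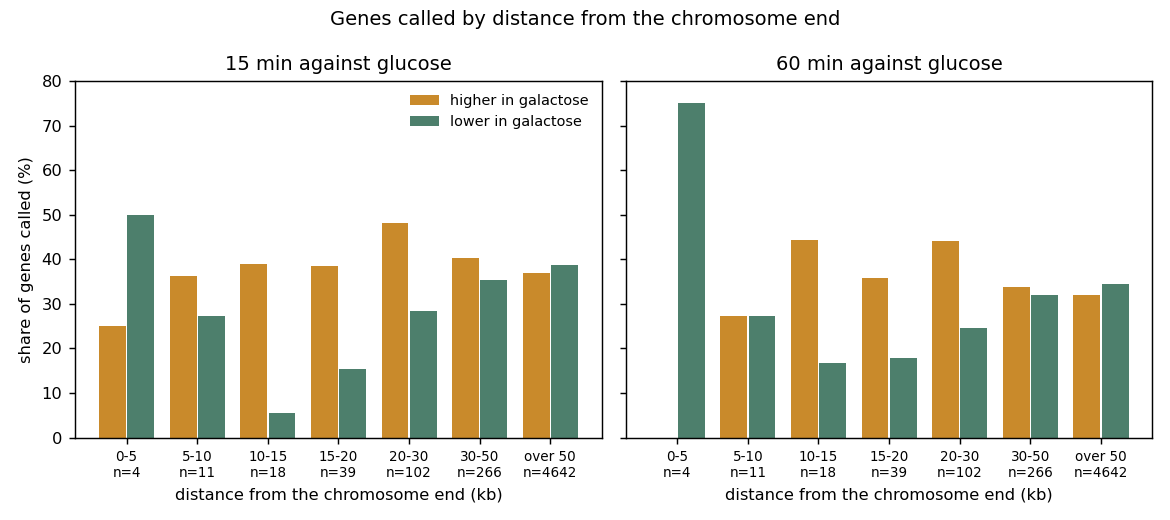
Share of genes called higher and lower in galactose (vertical axis, percent, from 0) by distance from the chromosome end in kb (horizontal axis, number of genes under each bin), at 15 min and at 60 min against glucose. The share of lower genes at 15 min is 50% within 5 kb (4 genes), 27.3% from 5 to 10 kb, 5.56% from 10 to 15 kb and 15.4% from 15 to 20 kb. Beyond 50 kb it is 38.8%.

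The smaller share of lower genes did not run evenly along the chromosome. At 15 min lower genes made up 50% of the 4 genes within 5 kb and 27.3% of the 11 from 5 to 10 kb. They made up 5.56% of the 18 genes from 10 to 15 kb and 15.4% of the 39 from 15 to 20 kb. Further in, they were 28.4% of the 102 from 20 to 30 kb and 35.3% of the 266 from 30 to 50 kb (all genes 38.1%). Within 10 kb, 5 genes rose and 5 fell at 15 min. The median of the listed genes there was -0.15 at 15 min and -0.44 at 60 min, opposite in sign to the median of all 72. The 2 bins within 10 kb differed, however. The 4 genes within 5 kb had medians of -0.38 at 15 min and -0.79 at 60 min. The 11 genes from 5 to 10 kb had medians of 0.40 and -0.12. Genes transcribed away from the end had a median change of 0.53 at 15 min and those transcribed toward it 0.05, a difference that was not tested.

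The maltose genes gave the highest change of the set. MAL33 (YBR297W, chromosome II, 800523 to 801929, 11.3 kb from the right end), an activator of maltose genes, had 72.8, 2372 and 1881 CPM in the deletion in glucose and at 15 and 60 min, and 44.0, 2163 and 1784 CPM in the wild type. Both strains were far above glucose at both times, by 5.29 ± 0.25 at 15 min and 4.98 ± 0.25 at 60 min on the log2 scale (edgeR adjusted p = 3.5e-11 and 1.55e-10). MAL31, the neighbouring maltose permease gene, had 23.8, 377 and 195 CPM in the deletion and 34.3, 380 and 172 CPM in the wild type. It rose by 3.74 ± 0.17 at 15 min (edgeR adjusted p = 1.77e-11) and was lower at 60 than at 15 min (log2 -1.05, edgeR adjusted p = 5.49e-05).

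On the right end of chromosome VII, MAL11, an alpha-glucoside permease gene, had 11.3, 140 and 60.7 CPM in the deletion and 13.6, 165 and 83.1 CPM in the wild type. It rose by 3.61 ± 0.18 at 15 min (edgeR adjusted p = 4.86e-11), and its level at 60 min was again below that at 15 min (log2 -1.08, edgeR adjusted p = 7.48e-05). MAL13, the activator gene of the same locus, was already at 97.1 CPM in the deletion and 104 CPM in the wild type in glucose, and it rose less, by 1.27 ± 0.13 at 15 min (edgeR adjusted p = 2.13e-07). YPR196W, a maltose activator relative on chromosome XVI, moved the other way. It had 51.5, 27.8 and 37.8 CPM in the deletion and 72.5, 41.8 and 33.5 CPM in the wild type, and fell by 0.83 at 15 min (edgeR adjusted p = 0.00254). The whole maltose and isomaltose list has 8 tested genes, of which IMA1, IMA5 and the invertase gene SUC2 are not among the 72. Of the 8 genes, 7 rose at 15 min and 1 fell (all genes 37.1% higher and 38.1% lower). For genotype 0 of the 8 passed edgeR's test (all genes 1.83%; 0 higher and 2 lower at unadjusted p of 0.05, 0 by DESeq2 and 0 by limma).

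MSC1 (YML128C, chromosome XIII, 15135 to 16676, 15.1 kb from the left end) had 50.7, 1680 and 693 CPM in the deletion and 47.5, 1909 and 617 CPM in the wild type. It rose by 5.19 ± 0.21 at 15 min (edgeR adjusted p = 9.81e-12) and was lower at 60 than at 15 min (log2 -1.46 for 60 minus 15 min, edgeR adjusted p = 1.88e-05). On the same end YML131W rose by 3.89 ± 0.16 at 15 min (edgeR adjusted p = 1.19e-11), with 18.6, 269 and 230 CPM in the deletion and 14.8, 225 and 152 CPM in the wild type. COX14 rose by 1.59 ± 0.16 and RSC9, a subunit gene of the RSC chromatin remodeller, by 0.93 ± 0.12 at 15 min (edgeR adjusted p = 1.73e-07 and 4.08e-06). The fifth gene of that end, ERO1, the thiol oxidase gene of the endoplasmic reticulum, did not pass at 15 min (log2 0.10 ± 0.14) and fell at 60 min by 0.65 (edgeR adjusted p = 0.00118).

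The right end of chromosome IX holds 7 of the genes, more than any other end. GTT1, a glutathione transferase gene, had 47.3, 342 and 311 CPM in the deletion and 38.2, 288 and 303 CPM in the wild type. HYR1, the thiol peroxidase gene beside it, had 107, 425 and 406 CPM in the deletion and 87.7, 405 and 374 CPM in the wild type. At 60 min GTT1 was 0.03 and HYR1 0.09 lower than at 15 min on the log2 scale, and neither difference passed. GTT1 rose by 2.87 ± 0.14 and HYR1 by 2.09 ± 0.14 at 15 min (edgeR adjusted p = 4.98e-11 and 1.99e-09). IRC24, further inward at 17.0 kb, rose by 1.44 ± 0.14 (edgeR adjusted p = 9.72e-08), whereas its neighbour NRE1 fell by 0.67 (edgeR adjusted p = 0.000819). LYS1, the saccharopine dehydrogenase gene of lysine synthesis, had a change of 0.00 ± 0.16. YPS6 rose by 3.62 ± 0.53 from very few reads, with 5, 21 and 9 counts in the deletion and 2, 17 and 11 in the wild type (edgeR adjusted p = 1.38e-05).

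**Figure D4:**
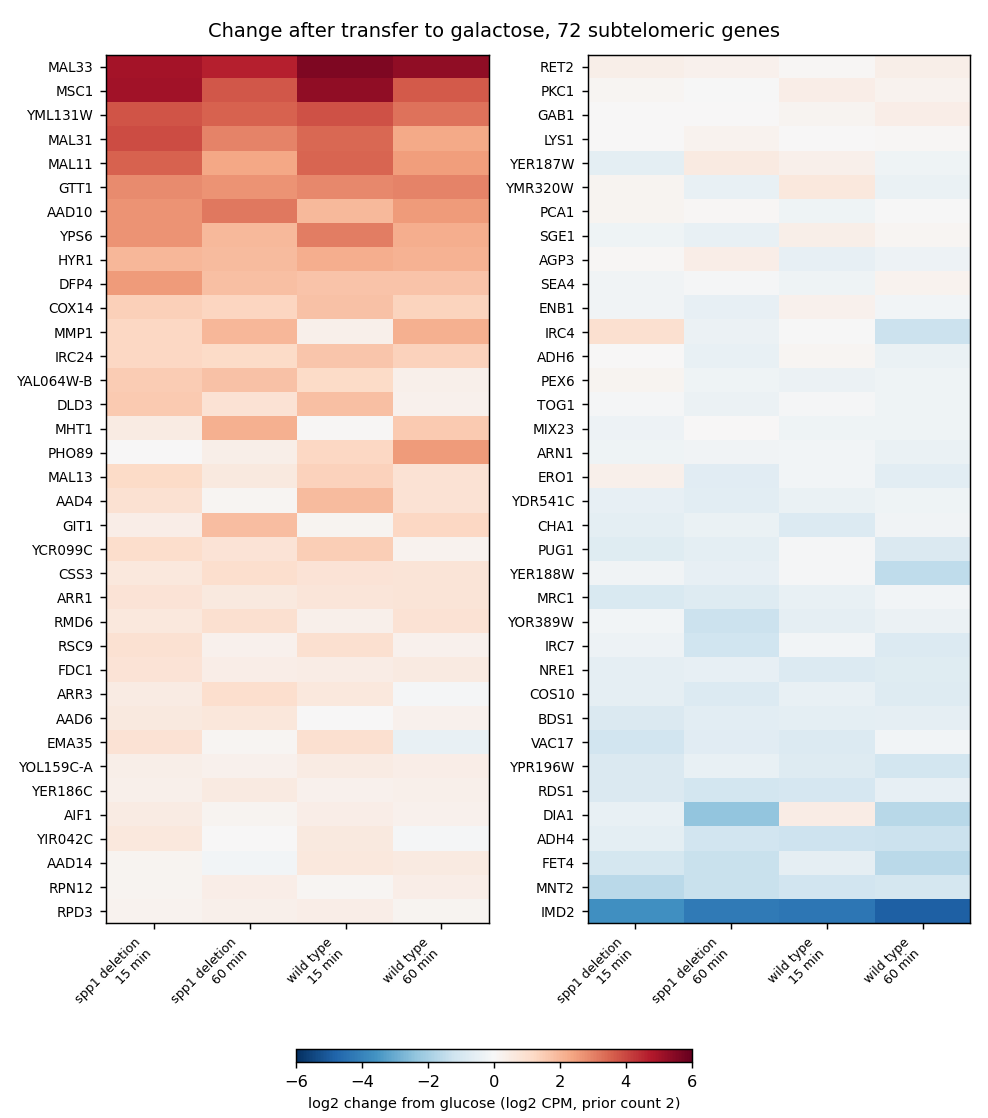
Change in log2 CPM (prior count 2) from glucose to 15 and 60 min in galactose for each of the 72 genes, in the spp1 deletion (left columns of each panel) and the wild type (right columns); red is higher and blue lower in galactose. Rows run from MAL33 at the top of the left panel to IMD2 at the bottom of the right panel, and the strains show like colours in most rows, with PHO89 an exception (0.01 and 0.35 in the deletion, 1.26 and 2.54 in the wild type).

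The aryl-alcohol dehydrogenase genes differed from each other. AAD10 (chromosome X, 727405 to 728271) had 9.07, 65.2 and 90.3 CPM in the deletion and 10.5, 43.4 and 66.4 CPM in the wild type, and rose by 2.51 ± 0.25 at 15 min and 3.03 ± 0.24 at 60 min (edgeR adjusted p = 2.21e-07 and 2.26e-08). AAD4 rose at 15 min by 1.46 ± 0.42 (edgeR adjusted p = 0.00491) at a mean of 15 counts. AAD6 (0.32 ± 0.23) and AAD14 (0.43 ± 0.42) did not pass at 15 min. DFP4 rose by 2.24 ± 0.22 at 15 min (edgeR adjusted p = 1.45e-07), with 17.9, 109 and 65.7 CPM in the deletion and 21.8, 73.8 and 73.4 CPM in the wild type. DLD3 rose by 1.70 ± 0.20 at 15 min and by 0.57 ± 0.20 at 60 min (edgeR adjusted p = 1.34e-06 and 0.0197).

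A further set of genes was higher at 60 than at 15 min. MHT1 had 12.7, 18.4 and 59.1 CPM in the deletion and 23.0, 24.6 and 70.9 CPM in the wild type. MMP1 had 16.7, 40.5 and 68.9 CPM in the deletion and 27.3, 34.4 and 121 CPM in the wild type. GIT1, a permease gene for glycerophosphoinositol, had 30.6, 40.5 and 114 CPM in the deletion and 37.4, 41.8 and 88.9 CPM in the wild type. In all 3 genes both strains were highest at 60 min. The log2 change from 15 to 60 min was 1.59 for MHT1, 1.28 for MMP1 and 1.29 for GIT1 (edgeR adjusted p = 0.000186, 0.000648 and 0.000171). PHO89 (0.89), VAC17 (0.58) and RMD6 (0.44) were the other 3 of the 6 genes higher at 60 than at 15 min.

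Between 15 and 60 min 22 of 72 genes passed edgeR's test (30.6%, all genes 36.5%). At 60 min 6 of them were higher than at 15 min (8.33%, all genes 20.4%) and 16 were lower (22.2%, all genes 16.1%), with a median of -0.16 for the 72 genes and 0.00 for the others. Scaling by library totals moved the median of all genes in this comparison by 0.15 and the split to 10 higher and 11 lower. Relative to the median of all genes the 72 stood at -0.16 under either scaling. Among the lower genes were DIA1 (-2.03), MSC1 (-1.46), DLD3 (-1.13) and the permease genes MAL11 and MAL31 given above.

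**Figure D5:**
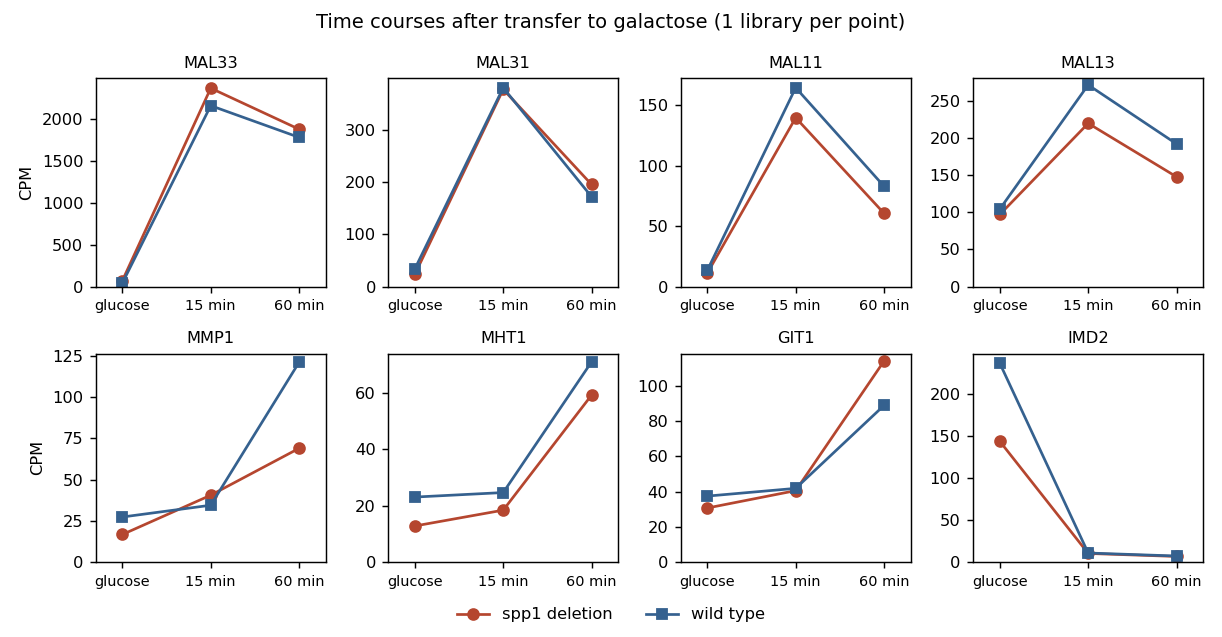
Level in CPM (vertical axis, from 0, its own scale in each panel) of 8 genes in glucose and at 15 and 60 min in galactose (horizontal axis, not to scale in time); each point is 1 library of the spp1 deletion or the wild type. The 4 MAL genes are highest at 15 min, MMP1, MHT1 and GIT1 are highest at 60 min, and IMD2 is at 10.1 and 6.57 CPM in the deletion and at 10.7 and 7.09 CPM in the wild type in galactose.

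IMD2 (YHR216W, chromosome VIII, 554396 to 555967, 6.68 kb from the right end) gave the strongest fall, with 143, 10.1 and 6.57 CPM in the deletion and 236, 10.7 and 7.09 CPM in the wild type. Its IMP dehydrogenase catalyses the rate-limiting step of guanine nucleotide synthesis. The change was -4.13 ± 0.22 at 15 min and -4.80 ± 0.24 at 60 min (edgeR adjusted p = 9.92e-11 and 1.55e-10). It is close in length and sequence to other IMD genes, so its reads may be shared with them. MNT2, a mannosyltransferase gene, had 169, 55.1 and 66.5 CPM in the deletion and 180, 80.3 and 86.3 CPM in the wild type, and fell by 1.39 at 15 min (edgeR adjusted p = 6.74e-07). Its neighbour ADH4, an alcohol dehydrogenase gene, had 77.2, 50.6 and 34.5 CPM in the deletion and 112, 46.7 and 45.7 CPM in the wild type, and fell by 0.91 (edgeR adjusted p = 0.000301). Both lie on the left end of chromosome VII.

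FET4, a low-affinity iron transporter gene, had 450, 217 and 178 CPM in the deletion and 348, 243 and 112 CPM in the wild type. It fell by 0.78 at 15 min and by 1.48 at 60 min (edgeR adjusted p = 0.000453 and 1.49e-06), while the siderophore transporter genes ARN1 (-0.21 and -0.32) and ENB1 (0.01 and -0.32) did not pass at either time. On the left end of chromosome III all 3 genes fell at 15 min. VAC17, a vacuole inheritance gene, fell by 1.00, the replication checkpoint gene MRC1 by 0.74 and the serine and threonine deaminase gene CHA1 by 0.68, with edgeR adjusted p of 0.000114, 0.00315 and 0.000525. RDS1 fell by 0.98 at 15 min (edgeR adjusted p = 0.00821), a call lost with DESeq2 (adjusted p = 0.0598), with thinned libraries (edgeR adjusted p = 0.148) and without either the wild-type 15 min or the deletion glucose library (edgeR adjusted p = 0.0826 and 0.0944).

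DIA1 had 130, 95.6 and 24.6 CPM in the deletion and 62.3, 86.1 and 19.3 CPM in the wild type, a change of -0.06 ± 0.19 at 15 min and -2.09 ± 0.24 at 60 min (edgeR adjusted p = 0.785 and 1.67e-06). IRC7, lower in the deletion, had a change of -0.25 ± 0.13 at 15 min and fell by 1.01 at 60 min (edgeR adjusted p = 0.0987 and 1e-05). COS10 fell at both times, by 0.51 and by 0.80 (edgeR adjusted p = 0.00321 and 0.000129). ARR1 and FDC1, which like COS10 were lower in the deletion, rose in galactose, ARR1 by 0.78 and FDC1 by 0.63 at 15 min (edgeR adjusted p = 0.00022 and 0.00275). Genes called lower in the deletion thus moved in either direction in galactose.

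Neighbours at one end did not all move together. Of 8 ends with at least 4 of the genes, 4 held genes called in both directions at 15 min. The 5 genes on the right end of chromosome V had changes between -0.42 and 0.27 at 15 min. The 7 genes called for genotype lay at 7 different ends.

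The galactose response of the 2 strains was compared as the change in the deletion minus the change in the wild type. PHO89 had 516, 520 and 659 CPM in the deletion in glucose and at 15 and 60 min, and 108, 259 and 629 CPM in the wild type. The wild-type glucose library was thus the lowest of the 6. The difference in response was -1.25 at 15 min and -2.19 at 60 min. At 15 min PHO89 alone of the 72 was at least 2-fold lower in this measure (1.39%, all genes 0.868%). At 60 min PHO89 was at least 2-fold lower (all genes 0.733%), and YAL064W-B, ARR3 and YER188W were at least 2-fold higher (4.17%, all genes 1.68%), each from few reads. A strain by galactose term over both times, added after the data were seen and with 1 residual degree of freedom, gave -1.74 ± 0.34 for PHO89 (edgeR adjusted p = 0.0375). That degree of freedom comes from 15 against 60 min, so the single glucose library of each strain adds no spread of its own to the test. PHO89 was 1 of 72 genes called by that term (1.39%, all genes 0.174%).

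Most of the genes known to silence or protect chromosome ends were themselves tested, 25 of the 28 looked for. Of 25 silencing and telomere factors tested, including RPD3, the histone deacetylase gene that is itself among the 72, 0 passed edgeR's test for genotype (all genes 1.83%; 0 higher and 2 lower at unadjusted p of 0.05, 0 by DESeq2 and 0 by limma), with a median log2 difference of -0.10. At 15 min 16 of the 25 fell and 1 rose (all genes 38.1% lower and 37.1% higher), and at 60 min 12 fell and 1 rose (all genes 33.9% lower and 32.3% higher). Their median changes were -0.52 and -0.41, against -0.01 and -0.02 for all genes. SIR2 fell by 1.48, RAP1 by 1.46, RIF1 by 1.64 and SAS2 by 2.90 at 15 min (edgeR adjusted p = 6.15e-06, 1.24e-06, 4.47e-05 and 4.96e-08), and YKU70 rose by 1.33 (edgeR adjusted p = 6.36e-06). At 15 and 60 min SIR3 changed by -0.25 and -0.21 and did not pass (edgeR adjusted p = 0.205 and 0.286). YKU80, with -0.36 and 0.08, did not pass either (edgeR adjusted p = 0.215 and 0.77). RPD3 did not pass at either time (0.29 ± 0.13 and 0.24 ± 0.13, edgeR adjusted p = 0.0536 and 0.111).

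The genes at the edge of the window were ENB1, PEX6 and GAB1 inside it, at 19.5, 19.5 and 19.7 kb, with genotype differences of -0.05, -0.18 and -0.38. Just outside were PRE4, PAD1 and MGA2, at 20.3, 20.3 and 20.4 kb, with differences of 0.15, -0.68 and 0.05. Their changes at 15 min were 0.01, -0.09 and 0.08 inside and 0.71, -0.85 and -0.75 outside. The 3 genes of lowest mean count inside were YPS6, YAL064W-B and AAD4, with means of 10.8, 11.2 and 15 counts.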

How the data were processed

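The authors deposited whole-number read counts per gene for the 6 libraries, used here as given. Per the submitters' processing notes, reads were aligned with Bowtie to sacCer3; no source used here gives the version, the counting tool, the strand setting or the gene windows. Of 5219 identifiers, 5116 were placed through a RefSeq table, and 103 were not; 3 lines held no gene and stayed out. Distance runs from the last base of the sacCer3 chromosome to the nearest gene end.

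Counts were fitted with edgeR 4.0.16 (TMM scaling, quasi-likelihood, condition plus genotype, 2 residual degrees of freedom) in R 4.3.3, with Benjamini-Hochberg adjustment over all 5186 genes with a mean count of at least 10. Thus the 3 conditions stand in for replicates of genotype and the 2 strains for replicates of medium. The labels do not say that libraries came from separate cultures, so p-values measure the spread between these libraries, which may be partly technical. The spread of each gene was also drawn toward that of the other genes, with 13.0 prior degrees of freedom. A p-value therefore does not rest on the gene's own spread alone. CPM were taken on totals times TMM factors. Single pairs used log2 CPM with a prior count of 2 and exact 95% binomial intervals. Alternatives included DESeq2 1.42.0 and limma 3.58.1.

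The members and lists were chosen with earlier results of these data known. Genes were picked for naming by a rule, and not every gene it picked is described. BDS1, YOR389W, IRC4 and SGE1 are among those left out. The rule took the genes called for genotype. It took the 10 highest and 10 lowest by genotype difference and by change at each time with the same sign throughout. It also took the 5 highest and 5 lowest differences in response, those at the thresholds, and list members. ARR3, IMD2 and MMP1 in the genotype comparison, COX14, RSC9, ERO1, IRC24, NRE1, LYS1, GIT1, RMD6 and VAC17 in the galactose comparisons, and the silencing factors named, were also chosen after their values were seen.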

Additional observations from a re-analysis of the deposited data

Results flagged for a closer look

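PHO89 was the 1 gene of the 72 called for a difference in galactose response between strains. The strain by galactose term, over both times together, was -1.74 ± 0.34 on the log2 scale (edgeR adjusted p = 0.0375, 1 residual degree of freedom), and the term was added after the data were seen. The test takes its spread from 15 against 60 min only, with 1 glucose library per strain and no measure of how glucose libraries vary. In counts, PHO89 had 2104, 822 and 803 in the deletion in glucose and at 15 and 60 min, and 276, 316 and 977 in the wild type.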

How the results depend on the processing

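The condition term of the fit already pairs the strains within each condition, and the labels carry no replicate numbers for any other pairing. For genotype, 1 gene higher became 0 with RLE factors, a mean count of 50, thinned libraries, no glucose libraries, a 10 kb window or an adjusted p of 0.01, 2 with library totals or median centring, and 4 without the 15 min libraries, without the 60 min libraries or with a 30 kb window. The 6 lower became 3 with RLE factors, limma or a mean count of 50, and 2 without glucose libraries. They became 1 with thinned libraries or an adjusted p of 0.01, and 0 with DESeq2 (8 at its unadjusted p of 0.05). At a mean count of 50 the 3 lower were 5.26% of 57 genes (others 0.445% of 4949), and 0 were higher (others 1.03%). Apart from DESeq2 and limma, given above, the other counts stand without the share of all genes. Leaving out 1 library gave 0 to 4 higher and 0 to 6 lower. The median of -0.02 became -0.0845 thinned, -0.0911 without 60 min and -0.22 within 10 kb, and ran from -0.0910 to -0.0241 with 1 library left out. COS10 kept its call in 14 of 16 alternatives, ARR1 in 11, IRC7 and DLD3 in 10, YIR042C and FDC1 in 5 and YOL159C-A in 2. PHO89 passed in 8, DIA1 in 6 and CHA1 in 3.

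For galactose at 15 min, the counts within 10 kb were 5 higher and 5 lower, and within 30 kb 74 and 40. The median became 0.21 with library totals, 0.20 thinned, -0.15 within 10 kb and 0.36 for genes wholly inside 20 kb. At 60 min, 10 kb gave 3 higher and 6 lower, and 30 kb gave 69 and 40. DESeq2 gave 10 lower (13.9%, the other genes 27.2%), and thinning gave 10 lower. Apart from DESeq2, the counts called in galactose under these settings stand without the share of all genes. The 60 min median became 0.28 with library totals, 0.25 at a mean count of 50, -0.44 within 10 kb, 0.27 for whole genes, 0.23 with chromosome XI and the 2 left-out genes, 0.14 without the multi-copy families and 0.15 from the outermost annotated gene. With 1 library left out, 15 min gave 21 to 28 higher, 10 to 13 lower and a median of 0.21 to 0.29, and 60 min gave 20 to 26, 12 to 18 and 0.12 to 0.21. Library totals gave 10 genes higher at 60 than at 15 min and a median of -0.0074. A prior count of 20 left 1, 0 and 1 genes at least 2-fold higher in the deletion in glucose and at 15 and 60 min, 0 lower at 15 and 60 min, and 0 with a higher response at 60 min. With library totals the median of all genes moved too, by -0.068 at 15 min, 0.083 at 60 min and 0.15 from 15 to 60 min. Relative to all genes, the subtelomeric medians were 0.29, 0.21 and -0.16 under both TMM and library totals. These shifts of the median were thus shared with all genes. The cause of the other shifts was not tested, apart from the windows and thresholds, which change the genes counted. Of 578 alternatives for single genes, 502 kept direction and side of the threshold, 17 passed newly, 59 no longer passed and 0 reversed.

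The 72 genes have fewer counts than others, and 15 of them have a mean under 50, where small differences were not detectable. Only 31.5% of annotated genes within 20 kb were listed, so most of the repeated families are not covered.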
